A study of Homo sapiens with 9 samples.

Results

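The genes described here carry glucose into the cell, break it down to pyruvate and lactate, steer pyruvate into mitochondria, or divert sugar into the pentose phosphate pathway. The set held 34 named genes, chosen by gene symbol, of 62666 genes in the deposited table, and all 34 passed the filter on low counts. They comprised 4 transporters of glucose and lactate, 9 genes of upper glycolysis, 3 genes for the enzymes that set fructose 2,6-bisphosphate, 6 genes of lower glycolysis, 2 lactate dehydrogenase genes, 7 genes of pyruvate dehydrogenase and its regulators, and 3 pentose phosphate genes. Polyadenylated RNA was sequenced from 3 related human mammary epithelial cell lines, with 3 libraries per line. MCF10A is a spontaneously immortalised line that does not form tumours. MCF10AT1 is its derivative carrying activated HRAS and serves as a premalignant model, and MCF10Ca1a is a line of the same lineage that forms carcinomas. Each group was a single line, and the labels do not say whether the libraries came from separate cultures, so p-values measure the spread between these libraries, which may be technical. All lines grew in DMEM/F12 medium with insulin at 10 µg/mL, EGF at 20 ng/mL, hydrocortisone at 500 ng/mL, cholera toxin at 100 ng/mL, L-glutamine at 2 mM and NaHCO3 at 14 mM. Horse serum was 5% for MCF10A and MCF10Ca1a and 2.5% for MCF10AT1, so serum and line cannot be told apart in comparisons with MCF10AT1.

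Glycolysis converts glucose to pyruvate in the cytosol. Lactate dehydrogenase reduces pyruvate to lactate, which leaves through monocarboxylate transporters, whereas the pyruvate dehydrogenase complex commits pyruvate to the citric acid cycle and is switched off by the PDK kinases and on by the PDP phosphatases. The pentose phosphate pathway branches off at glucose 6-phosphate and supplies NADPH and ribose. Many steps are encoded by several isozyme genes, and raised glycolysis and lactate output are a long-studied feature of carcinoma cells. RNA levels measure neither enzyme activity nor flux.

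Library totals ran from 32.9 to 69.5 mega-counts (M), with means of 66.0, 66.3 and 34.5 M in MCF10A, MCF10AT1 and MCF10Ca1a. MCF10A replicate 1 stood apart from its line. In CPM (counts scaled to a common library total, adjusted by the TMM method), it was the highest library of its line for 27 of the 34 genes (79.4%, against 46.7% of all genes tested), a median of 0.21 on the log2 scale above replicate 3. MCF10Ca1a replicate 3 was highest of its line for 25 (73.5%, against 34.9%). All 8 epithelial markers had at least 10 counts in every library, and their summed TPM (transcript abundance divided by transcript length and scaled to a common total) ran from 2391 to 3265 in MCF10A, from 3379 to 3822 in MCF10AT1 and from 3988 to 4110 in MCF10Ca1a. CD3E was at 0 in all libraries. Summed endothelial markers ran from 15.6 to 20.8 TPM in MCF10Ca1a and from 0.674 to 0.901 in MCF10A, with CDH5 at 0 in both lines, and adipocyte markers from 6.66 to 7.68 and from 0.159 to 0.373. Fibroblast markers ran from 27.7 to 31.5 TPM in MCF10AT1, from 6.43 to 7.23 in MCF10A and from 1.94 to 2.33 in MCF10Ca1a, and blood markers from 3.39 to 3.98, from 7.60 to 9.41 and from 0.269 to 0.367. Few genes of these lists passed the filter. In MCF10Ca1a against MCF10A, 2 of 4 endothelial genes were tested, 1 higher and 1 lower, and 1 of 3 adipocyte genes, which was higher. In MCF10AT1 against MCF10A, 3 of 7 fibroblast genes were tested, 1 higher and 1 lower, and 1 of 5 blood genes, which was lower. The part of depth and of these markers in the results was not tested, except that thinning all libraries to the smallest reversed no called direction. In MCF10Ca1a, thinning added calls for ALDOA against MCF10A and for PFKM against both other lines. It lost the PFKFB4 call against MCF10AT1. In such bulk RNA, fewer cells of a kind and less RNA per cell cannot be told apart.

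In the counts, lower glycolysis and lactate dehydrogenase genes were at their lowest in MCF10Ca1a. The pentose phosphate genes TKT and TALDO1, the glucose transporter SLC2A1 and several upper glycolysis genes were at their highest there. By mean TPM, GAPDH was lowest in MCF10AT1 (3316, against 3420 in MCF10Ca1a). All 6 lower glycolysis genes and both lactate dehydrogenase genes were lower in MCF10Ca1a than in MCF10A. The same held for these 8 genes against MCF10AT1. On the TPM scale, however, the GAPDH call was lost against both lines, and its change against MCF10AT1 turned to 0.05. Without a filter on low values, the ENO1 call against MCF10AT1 was lost on that scale as well. All 3 pentose phosphate genes and 6 of 7 genes of the pyruvate dehydrogenase group were higher in MCF10Ca1a than in MCF10A. These counts stand beside 39% of all genes tested called higher and 41.9% called lower in MCF10Ca1a against MCF10A, and 38% and 40.3% against MCF10AT1. Between MCF10A and MCF10AT1 the changes were smaller: the median absolute log2 change of the 34 genes was 0.26, against 0.81 between MCF10A and MCF10Ca1a and 0.63 between MCF10AT1 and MCF10Ca1a.

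A gene was called different at an adjusted p under 0.05 (edgeR's quasi-likelihood F test fitted to all 9 libraries, Benjamini-Hochberg over 17910 genes). The 3 comparisons share libraries and are therefore not independent of each other. In MCF10AT1 against MCF10A, 12 of the 34 genes were higher, 11 lower and 11 not called, where 61.6% of all genes tested were called (29.8% higher and 31.8% lower). In MCF10Ca1a against MCF10A, 19 were higher, 13 lower and 2 not called, where 80.9% of all genes were called (39% higher and 41.9% lower). In MCF10Ca1a against MCF10AT1, 16 were higher, 14 lower and 4 not called, where 78.4% of all genes were called (38% higher and 40.3% lower). With so large a share of all genes called, the number of calls in the set was near the background in MCF10AT1 against MCF10A. Calls of at least 2-fold were fewer. They were 1 higher and 0 lower in MCF10AT1 against MCF10A (all genes 9.36% and 8.64%), 7 higher and 6 lower in MCF10Ca1a against MCF10A (21.2% and 21.7%), and 6 higher and 6 lower in MCF10Ca1a against MCF10AT1 (18.2% and 19.5%). The median log2 change of the set was -0.00, 0.29 and 0.16 in these comparisons, beside -0.00, -0.05 and -0.04 over all genes tested, and the median absolute change of all genes was 0.38, 0.84 and 0.76. CPM did not overlap between the lines for 23, 32 and 32 of the 34 genes, where 65.4%, 81.5% and 81.9% of all genes did not overlap. On the deposited TPM values, tested with limma on log2(TPM + 1), the set gave 9 higher and 13 lower, 21 higher and 11 lower, and 19 higher and 10 lower. Of all genes, 53.2%, 76.6% and 74.3% were called on that scale. That scale moved the median of all genes to -0.07, 0.06 and 0.13, and the higher share of all calls from 48.4% to 36.2% in MCF10AT1 against MCF10A, from 48.2% to 55.0% in MCF10Ca1a against MCF10A, and from 48.5% to 61.6% in MCF10Ca1a against MCF10AT1. Without MCF10A replicate 1 the calls were 14 higher and 12 lower, 21 and 13, and 17 and 14 in these comparisons. Of all genes, 60.4%, 81.0% and 79.8% were called in that fit. Without MCF10Ca1a replicate 3 they were 12 and 11, 18 and 13, and 16 and 13, where 60.1%, 77.4% and 74.5% of all genes were called.

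**Figure D1:**
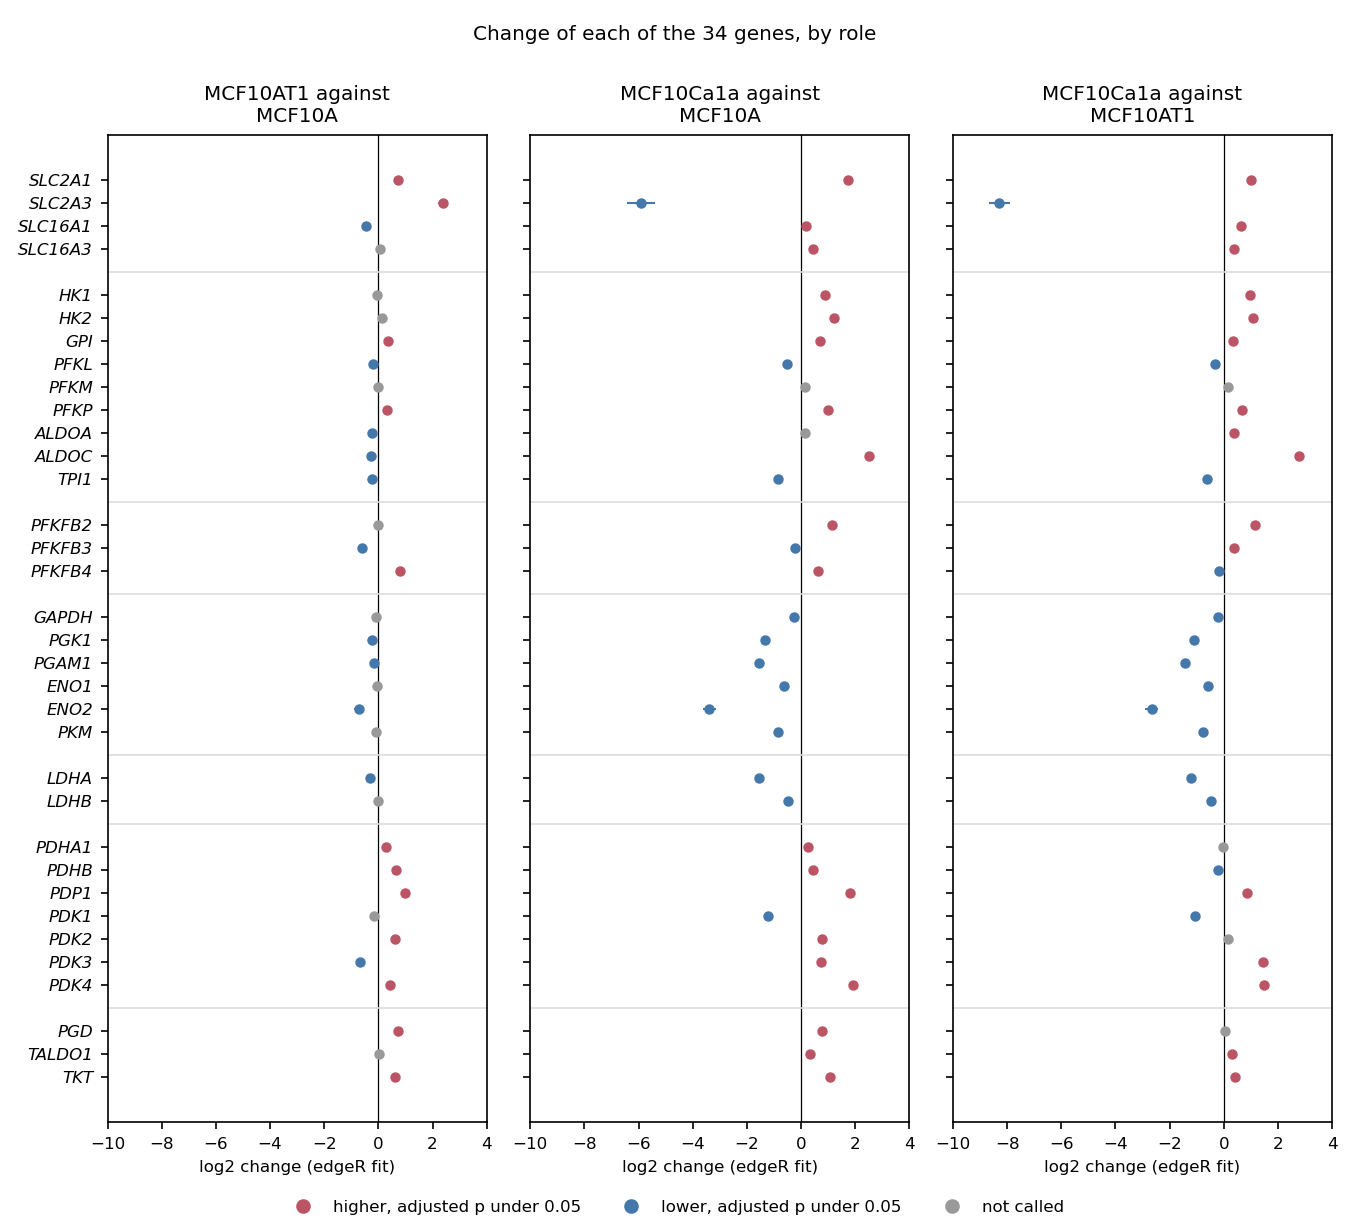
Fitted log2 change of each of the 34 genes in the 3 comparisons, ordered by role, as points with bars of 1 SE, red for called higher, blue for called lower and grey for not called in the first-named line (the fitted values of SLC2A3 against MCF10Ca1a, at 0 to 1 counts a library, depend on the prior count). The lower glycolysis and lactate dehydrogenase genes lie below 0 in MCF10Ca1a against both other lines, and ALDOC has the highest value there.

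Along the order MCF10A, MCF10AT1, MCF10Ca1a, 12 of the 34 genes had a higher mean CPM at each step and 10 a lower one, orders that 23% and 25.5% of all genes tested had. Both steps were called higher for 6 genes, GPI, PDK4, PDP1, PFKP, SLC2A1 and TKT (10.8% of all genes). Both were called lower for 6 others, ENO2, LDHA, PFKL, PGAM1, PGK1 and TPI1 (13% of all genes). A called fall into MCF10AT1 was followed by a called rise into MCF10Ca1a for 5 genes, ALDOA, ALDOC, PDK3, PFKFB3 and SLC16A1 (12.7% of all genes). The reverse path was taken by 3 genes, PDHB, PFKFB4 and SLC2A3 (13.8% of all genes), but on the TPM scale the second step was not lower for PDHB (log2 difference 0.01) or PFKFB4 (0.09). PFKL likewise had no second fall on the TPM scale (-0.01), and the first rise of PFKP and PDK4 was not called there (limma adjusted p 0.233 and 0.0982). With limma on that scale, the log2 change of members called in the counts was over 1.5 times smaller, or turned, for 7 genes in MCF10AT1 against MCF10A, 5 in MCF10Ca1a against MCF10A and 11 in MCF10Ca1a against MCF10AT1, and over 1.5 times larger for 4, 5 and 6.

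Summed over the set, TPM was 16464 ± 1758 (SD, n = 3) in MCF10A, 14164 ± 989 in MCF10AT1 and 13793 ± 265 in MCF10Ca1a, or 1.65%, 1.42% and 1.38% of the transcriptome. The composition shifted more than the sum. Lower glycolysis went from 8461 ± 954 TPM in MCF10A to 7280 ± 528 in MCF10AT1 and 6287 ± 119 in MCF10Ca1a. The lactate dehydrogenase pair went from 4303 ± 280 to 3348 ± 261 and 2101 ± 2.23 TPM. Pentose phosphate genes went from 591 ± 84.2 to 753 ± 43.0 and 1166 ± 33.6 TPM. The transporters held 494 ± 94.7, 460 ± 18.8 and 865 ± 21.2 TPM, and upper glycolysis 2339 ± 330, 1979 ± 126 and 2936 ± 95.7 TPM, both with MCF10Ca1a highest. These sums are descriptions with no test.

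**Figure D2:**
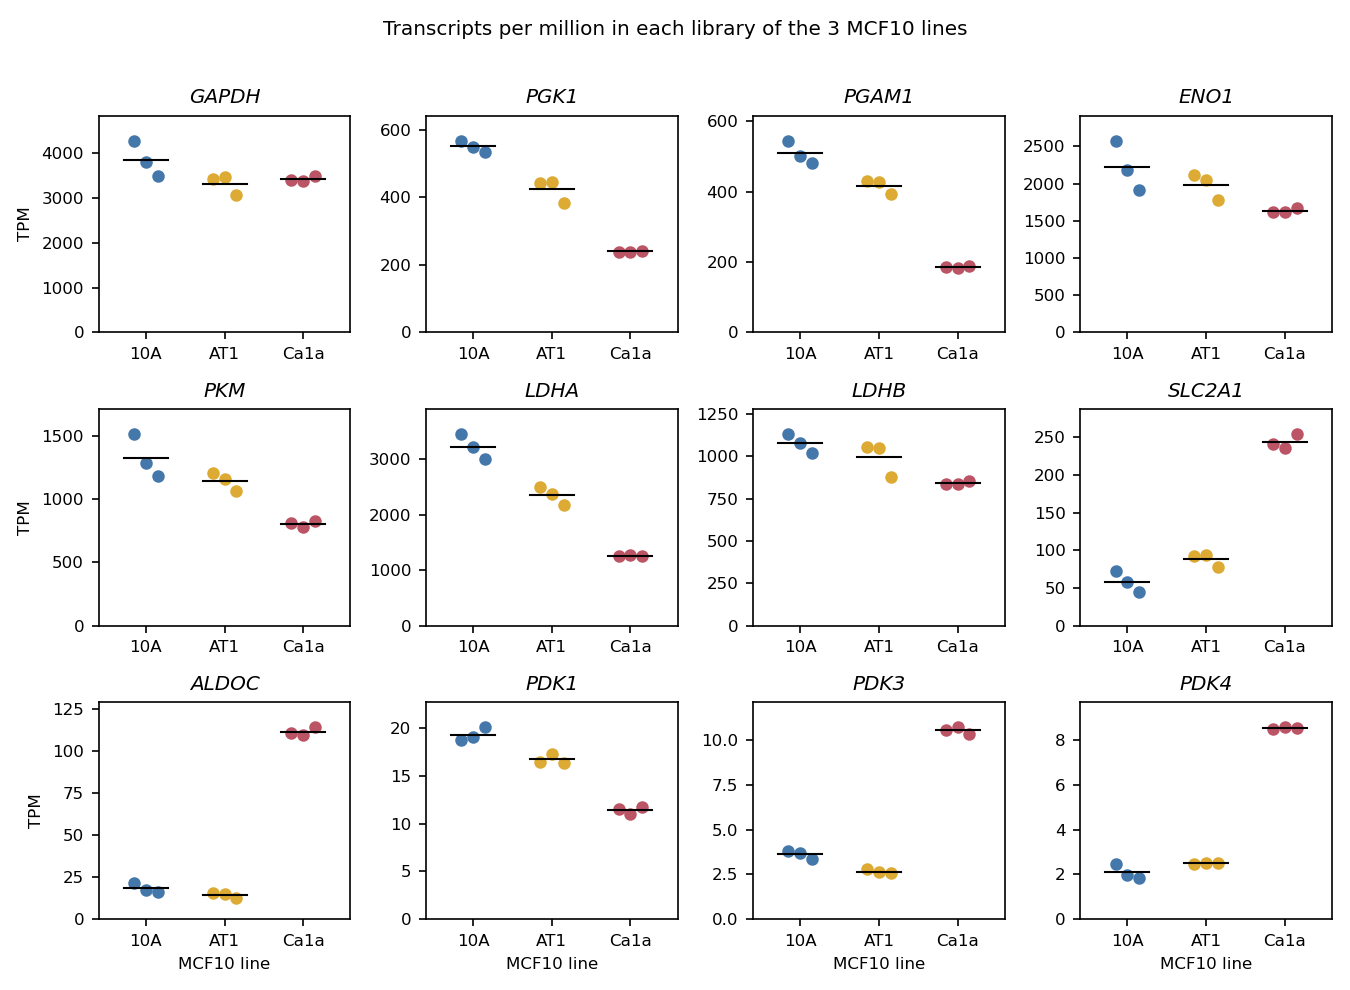
TPM in each library (points) and the mean of each line (bars across) for 12 of the genes, each panel on its own linear axis from 0. LDHA, PGK1, PGAM1 and PDK1 are lowest in MCF10Ca1a, and SLC2A1, ALDOC, PDK3 and PDK4 are highest there.

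Of the transporters, SLC2A1, which encodes GLUT1, the main glucose carrier of most epithelial cells, rose at each step. SLC2A1 (GRCh38 chr1:42925375-42959176, positions here from GENCODE 29) had 91.4, 77.6 and 69.6 CPM in the MCF10A libraries, 134, 136 and 124 CPM in the MCF10AT1 libraries and 264, 255 and 281 CPM in MCF10Ca1a. The lines did not overlap. The log2 change was 0.72 (SE 0.0842, edgeR adjusted p 5.3e-06) from MCF10A to MCF10AT1 and 1.02 (SE 0.0841, edgeR adjusted p 6.22e-08) from there to MCF10Ca1a, a 3.35-fold rise over both steps. SLC2A3 (chr12:7919230-7936275), which encodes the high-affinity carrier GLUT3, was close to silent in MCF10Ca1a. It had 55, 41 and 43 counts in MCF10A, 245, 247 and 225 in the MCF10AT1 libraries and 0, 0 and 1 in MCF10Ca1a. Its rise into MCF10AT1, the largest of the set in that comparison, was 2.39 on the log2 scale (SE 0.172, edgeR adjusted p 4.08e-08), or 1.03 on the log2(TPM + 1) scale, which understates changes of scarce genes. Corrected for depth, the summed counts were 386 times higher in MCF10AT1 than in MCF10Ca1a (95% interval 69.0 to 15251) and 73.4 times higher in MCF10A than in MCF10Ca1a (13.0 to 2919). These intervals cover counting error only. Even at its highest, SLC2A3 made up 1.90% ± 0.328 (SD, n = 3) of the summed TPM of this transporter pair.

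The lactate carriers moved less. SLC16A3, encoding MCT4, a lactate exporter of glycolytic cells, had 461, 381 and 357 CPM in MCF10A, 420, 419 and 409 in the MCF10AT1 libraries and 553, 525 and 560 in MCF10Ca1a. Its log2 difference between MCF10Ca1a and MCF10A was 0.45 (SE 0.0802, edgeR adjusted p 0.000141), and its change into MCF10AT1 was 0.06 (SE 0.0799, edgeR adjusted p 0.563). Without MCF10A replicate 1 that change was 0.17 and was called (adjusted p 0.00471). SLC16A1, encoding MCT1, which carries lactate and pyruvate either way, fell by 0.46 into MCF10AT1 (SE 0.0711, edgeR adjusted p 6.95e-05) and rose by 0.65 from there to MCF10Ca1a (SE 0.0714, edgeR adjusted p 1.36e-06). Between MCF10Ca1a and MCF10A, SLC16A1 differed by 0.19 (edgeR adjusted p 0.0276; 0.32 with limma on the TPM scale), a call lost in 10 of 20 alternative analyses. Among these were the omission of MCF10A replicate 2 (adjusted p 0.0744) or 3 (0.152), MCF10AT1 replicate 1 (0.0506) or 2 (0.0501), and MCF10Ca1a replicate 1 (0.0623), 2 (0.0589) or 3 (0.0706).

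Upper glycolysis, which traps glucose as a phosphate and splits it into 3-carbon sugars, had 2 genes higher, 4 lower and 3 not called in MCF10AT1 against MCF10A (all genes 29.8% higher and 31.8% lower). Against MCF10A, MCF10Ca1a had 5 higher (HK1, HK2, GPI, PFKP and ALDOC), 2 lower (PFKL and TPI1) and 2 not called (PFKM and ALDOA), beside 39% and 41.9% of all genes. Against MCF10AT1 it had 6 higher, 2 lower and 1 not called (all genes 38% and 40.3%). The number called was near the background in each. The hexokinases HK1 and HK2, which phosphorylate glucose, showed changes of -0.06 and 0.14 into MCF10AT1, neither called, and then rose by 0.96 and 1.09 into MCF10Ca1a. HK2 CPM ran from 54.7 to 72.8 in MCF10A, from 68.2 to 69.7 in MCF10AT1 and from 142 to 150 in MCF10Ca1a. Without MCF10A replicate 1, the HK2 change into MCF10AT1 was 0.27 and was called (edgeR adjusted p 0.000169). HK1 kept 84.3%, 82.4% and 81.2% of the summed HK1 and HK2 TPM in the 3 lines. GPI, the isomerase that makes fructose 6-phosphate, rose at both steps, by 0.35 (SE 0.0721, edgeR adjusted p 0.000753) and 0.33 (SE 0.0721, edgeR adjusted p 0.000836). With limma on the TPM scale the GPI steps were 0.33 and 0.87, the first not called without a filter (adjusted p 0.0502). Its total change was 0.68 in the counts and 1.20 on the TPM scale, and its transcript usage, given further on, differed between the lines.

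Phosphofructokinase, the committing step of glycolysis, shifted towards the platelet-type isozyme. PFKP rose by 0.32 into MCF10AT1 and by 0.66 into MCF10Ca1a (SE 0.0736 and 0.0738, edgeR adjusted p 0.00207 and 1.49e-06). With limma on the TPM scale the first change was 0.16 and was not called. The liver-type PFKL fell by 0.20 and 0.31, the first being 0.36 with limma on the TPM scale and the second a call lost there. Muscle-type PFKM differed by 0.14 between MCF10Ca1a and each of the other lines (edgeR adjusted p 0.0578 against MCF10A and 0.0568 against MCF10AT1), without passing the test. It was called in 8 and 12 of 20 alternative analyses, including without MCF10A replicate 1 (adjusted p 0.00324 and 0.0189). With limma on the TPM scale the PFKM differences were 0.34 and 0.56 (adjusted p 0.0278 and 0.0019). PFKP made up 65.7%, 72.4% and 79.8% of the summed phosphofructokinase TPM in MCF10A, MCF10AT1 and MCF10Ca1a, and the ratio of PFKP to PFKL was 4.60 ± 0.242, 6.65 ± 0.357 and 13.1 ± 0.383 (SD, n = 3).

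The aldolase ALDOC, best known from brain, rose most of all 34 genes into MCF10Ca1a. ALDOC (chr17:28573115-28577264) had 25.3, 23.1 and 21.5 CPM in MCF10A, 20.3, 20.4 and 17.9 in the MCF10AT1 libraries and 131, 132 and 136 in MCF10Ca1a. The MCF10Ca1a libraries stood far above both other lines. The log2 change was 2.51 against MCF10A (SE 0.0682, edgeR adjusted p 5.08e-13), a 5.70-fold rise, and 2.76 against MCF10AT1 (SE 0.0692, edgeR adjusted p 4.62e-13), a 6.80-fold rise. Into MCF10AT1 it fell by 0.25 (edgeR adjusted p 0.00551), a call lost with the scaled counts (adjusted p 0.0523) and with limma on unfiltered TPM (0.0698). ALDOA, the ubiquitous aldolase, remained the main isozyme, with 1030 ± 136, 802 ± 50.1 and 1237 ± 31.3 TPM (SD, n = 3), and ALDOC made up 1.75%, 1.74% and 8.28% of the pair. ALDOA fell by 0.24 into MCF10AT1 and rose by 0.39 into MCF10Ca1a, the rise being 0.63 with limma on the TPM scale. Its difference between MCF10Ca1a and MCF10A, 0.15, was not called (edgeR adjusted p 0.0647), though it was called in 8 of 20 alternative analyses, including without MCF10A replicate 1 (adjusted p 0.00429). TPI1, which interconverts the 3-carbon sugars, fell by 0.24 and 0.61 at the 2 steps (edgeR adjusted p 0.00482 and 9.81e-07), or by 0.38 and 0.30 with limma on the TPM scale.

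The PFKFB genes encode enzymes that make and remove fructose 2,6-bisphosphate, the strongest activator of phosphofructokinase, and each followed its own course. PFKFB3 (chr10:6144934-6254644) had 61.6, 52.5 and 50.7 CPM in MCF10A, 37.2, 36.2 and 34.8 in the MCF10AT1 libraries and 46.3, 46.1 and 49.9 in MCF10Ca1a. It fell by 0.61 into MCF10AT1 (SE 0.0696, edgeR adjusted p 4.66e-06) and rose by 0.39 from there (edgeR adjusted p 0.000172), or by 0.70 with limma on the TPM scale. Its lower level in MCF10Ca1a than in MCF10A, -0.21 (edgeR adjusted p 0.0131), turned to 0.02 with limma on the TPM scale and was not called without MCF10Ca1a replicate 2 (adjusted p 0.0523). PFKFB4 (chr3:48517684-48562015) had 9.85, 10.2 and 9.32 CPM in MCF10A, 16.8, 17.9 and 16.6 in the MCF10AT1 libraries and 15.3, 15.4 and 14.3 in MCF10Ca1a. Both derived lines lay above MCF10A. The rise into MCF10AT1 was 0.80 (SE 0.0617, edgeR adjusted p 8.08e-08), or 0.53 with limma on the TPM scale. The later fall of 0.19 (edgeR adjusted p 0.0129) turned to a rise of 0.09 on the TPM scale and was not called without MCF10Ca1a replicate 3 (adjusted p 0.0529). PFKFB2 did not pass the test in MCF10AT1 (change 0.00, SE 0.0499) and rose by 1.14 into MCF10Ca1a (SE 0.05, edgeR adjusted p 8.13e-11). By TPM, PFKFB3 held 63.6% of the 3-gene sum in MCF10A, 47.7% in MCF10AT1 and 44.5% in MCF10Ca1a, and PFKFB2 held 22.9%, 26.0% and 39.9%.

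**Figure D3:**
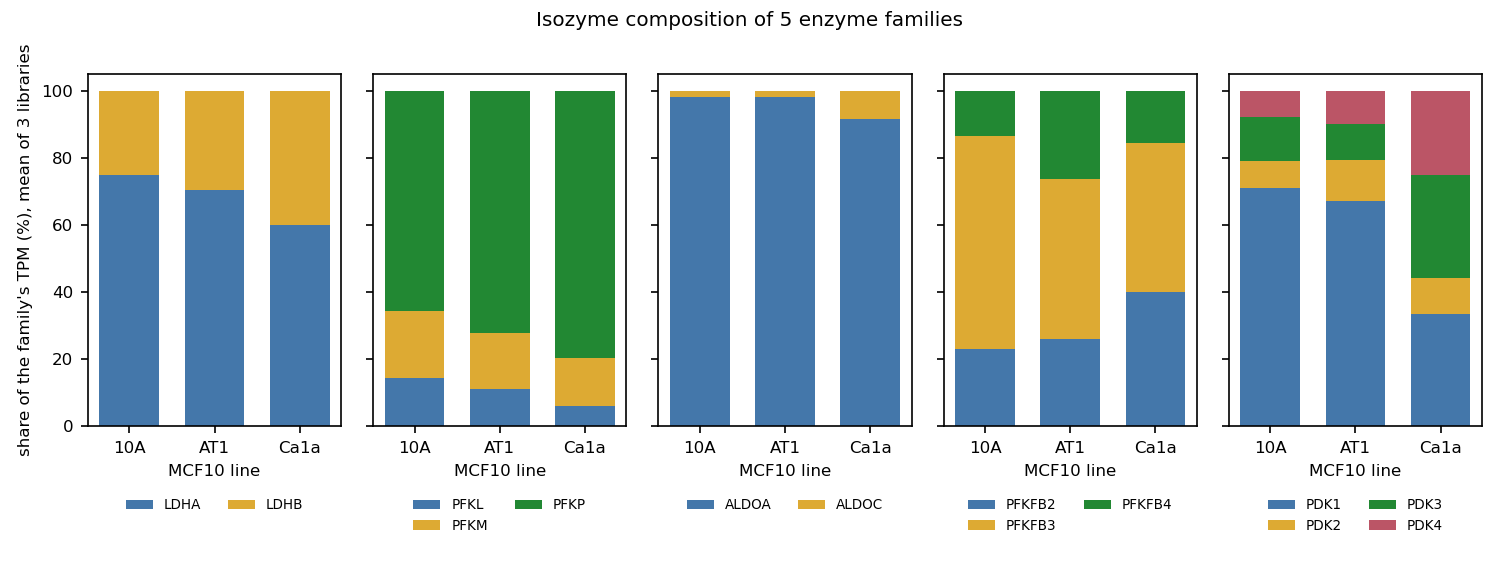
Mean share of each isozyme gene in the summed TPM of its family, in percent, as stacked bars for the 3 lines in 5 families, with no error shown. LDHA falls from 75.0% to 59.9% of the lactate dehydrogenase sum between MCF10A and MCF10Ca1a, and PDK1 from 71.0% to 33.4% of the PDK sum.

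The lower glycolysis genes, whose enzymes harvest ATP between glyceraldehyde 3-phosphate and pyruvate, had no member called higher in any comparison of the counts. Of all genes tested, 29.8% were called higher in MCF10AT1 against MCF10A, 39% in MCF10Ca1a against MCF10A and 38% in MCF10Ca1a against MCF10AT1. In MCF10AT1 against MCF10A, 3 of 6 fell (PGK1, PGAM1 and ENO2) and 3 were not called (GAPDH, ENO1 and PKM), beside 31.8% of all genes called lower. In MCF10Ca1a, all 6 were lower than in both other lines (all genes 41.9% and 40.3% lower). On the TPM scale, however, GAPDH was not called against either line and turned to 0.05 against MCF10AT1. ENO1 lost its call against MCF10AT1 on unfiltered TPM. PGAM1 (chr10:97426160-97433441), a phosphoglycerate mutase, had 672, 666 and 673 CPM in MCF10A, 619, 619 and 579 in the MCF10AT1 libraries and 225, 220 and 233 in MCF10Ca1a. The MCF10Ca1a libraries lay at about the same low level with no overlap. The log2 change was -1.57 against MCF10A (SE 0.0544, edgeR adjusted p 5.4e-12) and -1.42 against MCF10AT1 (SE 0.0542, edgeR adjusted p 2.04e-11), 2.97-fold and 2.68-fold lower. The small fall of PGAM1 into MCF10AT1, 0.15 on the log2 scale (edgeR adjusted p 0.0278) and 0.29 with limma on the TPM scale, was lost in 6 of 20 alternative analyses. Among them were the omission of MCF10A replicate 2 (adjusted p 0.065), MCF10AT1 replicate 1 (0.0551) or 3 (0.0812), and MCF10Ca1a replicate 2 (0.0502).

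PGK1 (chrX:77910739-78129296), the kinase of the first ATP-yielding step, had 943, 977 and 985 CPM in MCF10A, 846, 846 and 748 in the MCF10AT1 libraries and 375, 380 and 391 in MCF10Ca1a. It fell at both steps, by 0.25 and by 1.09 (edgeR adjusted p 0.00269 and 1.17e-09), the first being 0.38 with limma on the TPM scale. The enolase ENO1 held 99.95%, 99.97% and 99.99% of the enolase TPM in the 3 lines and had a change of -0.05 into MCF10AT1, not called, and then fell by 0.57 (SE 0.0755, edgeR adjusted p 9.22e-06). On the TPM scale that second fall of ENO1 was 0.27 (limma adjusted p 0.0327), and it was not called there without a filter on low values (adjusted p 0.083). ENO2 (chr12:6913745-6923698), the neuron-type enolase, was scarce throughout, with 132, 111 and 116 counts in MCF10A, 74, 64 and 75 in the MCF10AT1 libraries and 5, 7 and 6 in MCF10Ca1a. Its log2 change was -0.73 (SE 0.158, edgeR adjusted p 0.00124) into MCF10AT1 and -3.38 (SE 0.235, edgeR adjusted p 8.54e-09) in MCF10Ca1a against MCF10A, the largest fitted falls in those comparisons among members with at least 100 mean counts in the higher line. On the log2(TPM + 1) scale these ENO2 changes were -0.39 and -0.83. At 5 to 7 counts a library, the size of the second fall is imprecise.

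GAPDH (chr12:6533927-6538374), the glyceraldehyde 3-phosphate dehydrogenase often used as a reference gene, had 4564, 4385 and 4233 CPM in MCF10A, 4289, 4343 and 3898 in the MCF10AT1 libraries and 3619, 3542 and 3765 in MCF10Ca1a. MCF10A and MCF10AT1 overlapped, and MCF10Ca1a lay below both. Its log2 change was -0.07 (SE 0.0645, edgeR adjusted p 0.346) into MCF10AT1 and -0.27 (SE 0.0645, edgeR adjusted p 0.00155) in MCF10Ca1a against MCF10A, where limma on the TPM scale gave -0.17 (adjusted p 0.084). On that scale the change into MCF10AT1 was -0.21 and was called (adjusted p 0.0475). Against MCF10AT1 it was -0.20 in MCF10Ca1a (SE 0.0645, edgeR adjusted p 0.0125), but 0.05 on the TPM scale, and the call was lost with DESeq2 size factors (adjusted p 0.0506) and without MCF10Ca1a replicate 2 (adjusted p 0.0513). GAPDH, TPI1 and ENO2 lie close together on chromosome 12, where 6 of the 34 genes map. Of the 19 other tested genes between GAPDH and ENO2 (chr12:6533927-6923698), MCF10Ca1a had 6 higher and 11 lower relative to MCF10A, the median log2 change being -0.31, where 39% of all genes tested were higher and 41.9% lower. In MCF10AT1 against MCF10A, 3 were higher and 9 lower with a median of -0.25 (all genes 29.8% and 31.8%), where TPI1 and ENO2 were called lower. Relative to MCF10AT1, MCF10Ca1a had 7 of the 19 higher and 7 lower with a median of 0.08 (all genes 38% and 40.3%), where GAPDH, TPI1 and ENO2 were called lower on CPM. Their part in the falls of these 3 genes was not tested.

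Lactate dehydrogenase RNA was lower in MCF10Ca1a for both subunits, and more so for the A subunit. LDHA (chr11:18394388-18408425), whose subunit favours making lactate, had 2950, 2947 and 2908 CPM in MCF10A, 2429, 2438 and 2195 in the MCF10AT1 libraries and 994, 1001 and 1038 in MCF10Ca1a. The 3 lines did not overlap. The log2 change was -0.32 into MCF10AT1 (SE 0.0601, edgeR adjusted p 0.000415), -1.54 in MCF10Ca1a against MCF10A (SE 0.0615, edgeR adjusted p 2.27e-11), which is 2.90-fold lower, and -1.22 against MCF10AT1 (SE 0.061, edgeR adjusted p 3.32e-10). LDHB (chr12:21635342-21757857), whose subunit favours using lactate, had 849, 871 and 856 CPM in MCF10A, 903, 905 and 769 in the MCF10AT1 libraries and 610, 613 and 644 in MCF10Ca1a. MCF10A and MCF10AT1 overlapped, with a change of 0.00 (SE 0.067, edgeR adjusted p 0.988), and MCF10Ca1a was lower by a log2 change of -0.46 against MCF10A (SE 0.0673, edgeR adjusted p 2.06e-05) and -0.47 against MCF10AT1 (SE 0.0673, edgeR adjusted p 2.15e-05), the latter -0.23 with limma on the TPM scale. The ratio of LDHA to LDHB TPM was 3.00 ± 0.0501, 2.38 ± 0.106 and 1.49 ± 0.0311 (SD, n = 3) in MCF10A, MCF10AT1 and MCF10Ca1a, so LDHA went from 75.0% ± 0.311 to 70.4% ± 0.934 and 59.9% ± 0.503 of the pair. Processed copies of LDHA held at most 1.18% of its counts in any library, and those of TPI1, PGAM1 and GAPDH at most 0.476%, 0.405% and 0.204%.

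PKM (chr15:72199029-72231822, minus strand) encodes pyruvate kinase, which makes pyruvate and ATP. Its transcripts carry either of a pair of mutually exclusive exons of 167 bases. The M1 exon gives the constitutively active enzyme of muscle and brain, and the M2 exon the regulated enzyme of embryonic and proliferating cells. The exons are shown because the counts below rest on telling them apart. They are written 5′ to 3′ on the minus strand of GRCh38, with capitals at the 62 positions where they differ. The other 105 positions (62.9%) are identical.
PKM M1 exon, chr15:72203022-72203188: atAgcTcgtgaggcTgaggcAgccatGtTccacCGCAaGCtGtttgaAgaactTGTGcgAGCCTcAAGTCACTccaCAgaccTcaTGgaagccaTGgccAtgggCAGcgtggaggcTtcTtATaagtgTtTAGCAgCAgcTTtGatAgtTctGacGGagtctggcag
PKM M2 exon, chr15:72202454-72202620: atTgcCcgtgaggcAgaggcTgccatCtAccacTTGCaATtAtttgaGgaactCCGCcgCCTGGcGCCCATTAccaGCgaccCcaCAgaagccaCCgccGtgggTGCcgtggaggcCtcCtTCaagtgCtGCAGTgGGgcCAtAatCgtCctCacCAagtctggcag
As a gene, PKM had 2767, 2538 and 2442 CPM in MCF10A, 2547, 2469 and 2269 in the MCF10AT1 libraries and 1428, 1375 and 1476 in MCF10Ca1a. The first pair of lines overlapped and MCF10Ca1a lay well below. The log2 change was -0.09 into MCF10AT1 (SE 0.068, edgeR adjusted p 0.277), -0.86 in MCF10Ca1a against MCF10A (SE 0.0686, edgeR adjusted p 4.06e-08) and -0.77 against MCF10AT1 (SE 0.0685, edgeR adjusted p 1.48e-07), the last -0.50 with limma on the TPM scale.

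M2 was the prevailing form in all 3 lines, and the main M2 transcript, ENST00000335181, held 91.6% of PKM counts in MCF10A, 89.9% in MCF10AT1 and 90.2% in MCF10Ca1a. The M1 share of the summed M1 and M2 counts, over 5 M1 and 3 M2 transcripts, was 1.30%, 1.14% and 1.16% in the MCF10A libraries, 2.37%, 2.46% and 2.59% in MCF10AT1, and 2.09%, 2.02% and 2.00% in MCF10Ca1a. The libraries of the lines did not overlap, with MCF10A lowest and MCF10AT1 highest. Across the lines the log2 ratio of M1 to M2 counts differed with p = 0.00357 in an exact permutation test, the smallest value that 280 partitions of the libraries allow, and line means spanned 1.06. Each pair of lines gave the smallest p that 3 against 3 libraries allow, 0.1 in an exact two-sided permutation test. The order rested on 1 transcript. ENST00000561609 has the M1 exon but not both neighbouring exons, and it held 0.237%, 1.16% and 0.617% of PKM counts (limma adjusted p 0.00693 in MCF10AT1 against MCF10A and 0.0121 in MCF10Ca1a against MCF10A). Counting only transcripts with the exons on both sides, a choice made after seeing the data, gave M1 shares of 1.0%, 0.918% and 0.938% in MCF10A, 1.10%, 1.34% and 1.30% in the MCF10AT1 libraries, and 1.40%, 1.44% and 1.31% in MCF10Ca1a. MCF10A was still lowest, but MCF10Ca1a had the highest mean and overlapped MCF10AT1 (exact permutation p 0.2 for that pair, 0.00714 across the lines, span 0.55). Of 25 PKM transcripts in the table, 22 were tested for usage and 2 were called from counts (8 from transcript TPM). The calls from counts were 1 in MCF10AT1 against MCF10A, 2 in MCF10Ca1a against MCF10A and 0 in MCF10Ca1a against MCF10AT1, where 2.53%, 20.2% and 15.5% of all 71093 transcripts tested were called with limma. The other called transcript, ENST00000565154, an M1 form, went from 0% in MCF10A to 0.0778% in MCF10Ca1a (limma adjusted p 0.0118). Deposited transcript counts are estimates, and their assignment error was not used.

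**Figure D4:**
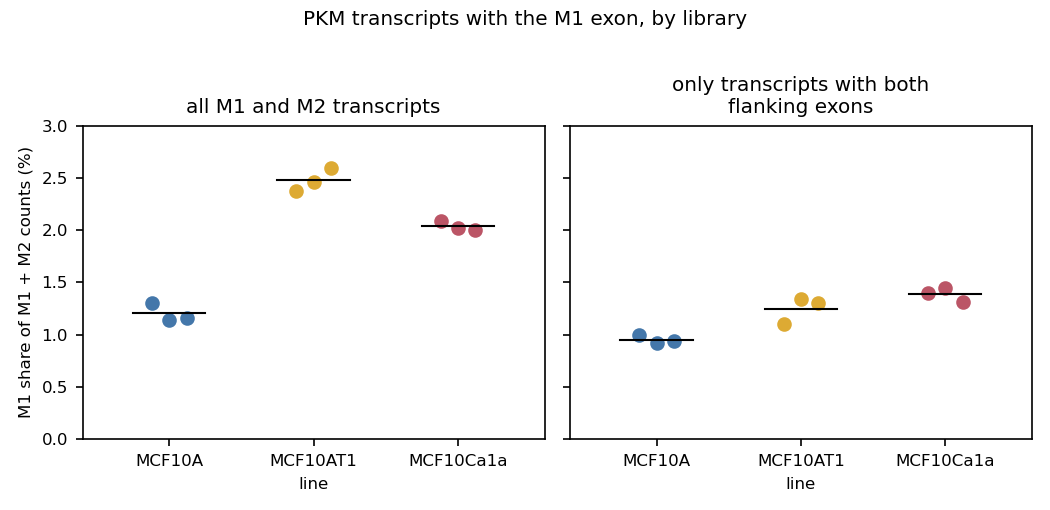
M1 share of the summed M1 and M2 transcript counts of PKM, in percent, for each library (points) with the mean of each line, over all transcripts with either exon (left) and over those that also hold both neighbouring exons (right). MCF10A is lowest in both, and the highest line is MCF10AT1 on the left and MCF10Ca1a on the right.

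Of 6 splicing factors known to act on PKM, 1 rose and 1 fell in MCF10AT1 against MCF10A, 2 rose and 4 fell in MCF10Ca1a against MCF10A, and 1 rose and 4 fell in MCF10Ca1a against MCF10AT1. Of all genes tested, 61.6%, 80.9% and 78.4% were called in these comparisons. PTBP1, HNRNPA1 and HNRNPA2B1, known repressors of the M1 exon, had log2 changes of -0.70, -0.55 and -1.13 in MCF10Ca1a against MCF10A. SRSF3, known to favour the M2 exon, had the largest fall, -1.84 (SE 0.0601, edgeR adjusted p 3.03e-12), while PTBP2 and RBM4 rose by 0.34 and 0.17. In MCF10AT1, PTBP1 fell by 0.39 and PTBP2 rose by 0.23. Any link between these levels and the M1 share was not tested.

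Genes of pyruvate dehydrogenase and its regulators had 5 higher, 1 lower and 1 not called in MCF10AT1 against MCF10A, and 6 higher and 1 lower in MCF10Ca1a against MCF10A. Of all genes tested, 29.8% were higher and 31.8% lower in the first of these and 39% and 41.9% in the second. Against MCF10AT1, MCF10Ca1a had 3 higher, 2 lower and 2 not called (all genes 38% and 40.3%). PDP1, the phosphatase that switches the complex on, had 29, 29.3 and 29.9 CPM in MCF10A, 59.1, 60.2 and 53.0 in the MCF10AT1 libraries and 101, 109 and 99.8 in MCF10Ca1a. It climbed at both steps with no overlap, by 0.97 (SE 0.0585, edgeR adjusted p 6.95e-09) and 0.84 (SE 0.0574, edgeR adjusted p 8.36e-09), a 3.50-fold rise in all (log2 1.81, SE 0.0594, edgeR adjusted p 3.16e-12). The subunit genes PDHA1 and PDHB of the first enzyme of the complex were higher in MCF10AT1 than in MCF10A. The differences were 0.28 and 0.66 (edgeR adjusted p 0.00433 and 5.08e-07). With limma on the TPM scale the PDHA1 difference was 0.20 and was not called. From MCF10AT1 to MCF10Ca1a, PDHB fell by 0.21 in the counts but changed by 0.01 on the TPM scale. PDHA1 changed by -0.03 in the counts, not called, but by 0.39 on the TPM scale (limma adjusted p 0.00507), and its transcript usage differed between these lines.

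The 4 PDK kinases, which phosphorylate and inactivate the complex, did not move together. PDK1 (chr2:172555373-172608669), the kinase best known as a hypoxia target, had 40.1, 44.8 and 48.1 CPM in MCF10A, 39.1, 41.0 and 40.4 in the MCF10AT1 libraries and 19.4, 20.2 and 18.2 in MCF10Ca1a. MCF10Ca1a lay below the others with no overlap. The log2 change was -1.20 against MCF10A (SE 0.0697, edgeR adjusted p 1.18e-09) and -1.06 against MCF10AT1 (SE 0.0699, edgeR adjusted p 5.85e-09). With limma on the TPM scale these PDK1 changes were -0.71 and -0.51. PDK1 changed by -0.14 into MCF10AT1 (SE 0.0644, edgeR adjusted p 0.0696), which was called without MCF10A replicate 1 (adjusted p 0.00205) and with limma on the TPM scale (-0.19). PDK3 (chrX:24465221-24541862) had 10.7, 10.5 and 9.80 CPM in MCF10A, 6.10, 6.34 and 6.80 in the MCF10AT1 libraries and 17.5, 17.5 and 17.3 in MCF10Ca1a, so the 3 lines stood apart with MCF10AT1 lowest. It fell by 0.69 (SE 0.0672, edgeR adjusted p 9.29e-07), or by 0.34 with limma on the TPM scale, and then rose by 1.44 (SE 0.068, edgeR adjusted p 1.78e-10). PDK4 (chr7:95583499-95596491), the kinase induced by fasting in many tissues, had 4.18, 3.58 and 3.57 CPM in MCF10A, 5.05, 4.99 and 5.33 in the MCF10AT1 libraries and 14.4, 14.5 and 14.4 in MCF10Ca1a. It rose by 0.44 (SE 0.0849, edgeR adjusted p 0.000478), a call lost on the TPM scale, and then by 1.49 (SE 0.0815, edgeR adjusted p 8.05e-10), for a total of 1.93 (SE 0.0836, edgeR adjusted p 5.06e-11). PDK2 was higher than in MCF10A by 0.60 in MCF10AT1 and 0.77 in MCF10Ca1a (edgeR adjusted p 0.00022 and 1.46e-05), the first being 0.38 with limma on the TPM scale and not called there without a filter. Of the summed PDK TPM, PDK1 held 71.0%, 67.0% and 33.4% in the 3 lines, PDK3 13.3%, 10.7% and 30.9%, and PDK4 7.67%, 10.0% and 25%.

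The 3 pentose phosphate members were never called lower. Of all genes tested, 31.8% were called lower in MCF10AT1 against MCF10A, 41.9% in MCF10Ca1a against MCF10A and 40.3% in MCF10Ca1a against MCF10AT1. TKT, the transketolase that links the pathway back to glycolysis, had 546, 480 and 443 CPM in MCF10A, 767, 784 and 719 in the MCF10AT1 libraries and 1012, 990 and 1057 in MCF10Ca1a. The lines did not overlap, and the steps were 0.63 (SE 0.0743, edgeR adjusted p 6.44e-06) and 0.43 (SE 0.0742, edgeR adjusted p 0.000111), the second being 0.72 with limma on the TPM scale. PGD, the second NADPH-yielding enzyme, had 185, 166 and 159 CPM in MCF10A, 291, 290 and 262 in the MCF10AT1 libraries and 288, 288 and 297 in MCF10Ca1a. It rose by 0.72 into MCF10AT1 (SE 0.0657, edgeR adjusted p 4.44e-07), and its second step, 0.05, was called only on the TPM scale (0.33). TALDO1, the transaldolase, changed by 0.02 into MCF10AT1 (edgeR adjusted p 0.734) and rose by 0.32 into MCF10Ca1a (SE 0.0516, edgeR adjusted p 5.96e-05), or by 0.63 with limma on the TPM scale.

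Further genes of the same routes, listed by textbook role, were read from the same fit, in which 61.6%, 80.9% and 78.4% of all genes tested were called in the comparisons, taken in the order used above. Of 11 further pentose phosphate genes, 10 were tested, with 5 higher and 1 lower in MCF10AT1 against MCF10A, 5 and 5 in MCF10Ca1a against MCF10A, and 5 and 4 in MCF10Ca1a against MCF10AT1. RPIA, which makes ribose 5-phosphate, was 1.06 higher in MCF10Ca1a than in MCF10A, whereas PRPS1, which uses it for nucleotides, and DERA were lower (-1.09 and -1.27). Of 26 further glycolysis and glucose genes, 15 were tested, with 3 higher and 5 lower, 7 and 5, and 7 and 3 in the same order. SLC2A6, a further glucose transporter gene, was higher by 1.91 in MCF10AT1 and by 3.78 in MCF10Ca1a than in MCF10A, and TIGAR, a fructose 2,6-bisphosphatase, was 0.82 higher in MCF10AT1 and changed by -0.80 in MCF10Ca1a. PGM1, which links glycogen to glycolysis, fell by 1.20 in MCF10Ca1a against MCF10A. Of 16 further lactate and pyruvate genes, 11 were tested, with 6 higher and 3 lower, 5 and 4, and 4 and 6. MPC1, a mitochondrial pyruvate carrier subunit, was 1.02 higher in MCF10AT1 than in MCF10A and fell by 0.92 from there. DLAT, the second enzyme of the pyruvate dehydrogenase complex, rose by 0.44 and then fell by 1.21. PDP2, a second activating phosphatase gene, was 1.18 higher in MCF10Ca1a than in MCF10A. PDPR, which encodes a regulatory subunit of pyruvate dehydrogenase phosphatase, was 1.30 higher there. EMB, a partner protein of lactate carriers, fell by 1.98 there, and BSG, the other such partner, rose by 0.32.

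Of 10 regulators of these genes, 9 were tested, with 4 higher and 4 lower in MCF10AT1 against MCF10A, 6 and 3 in MCF10Ca1a against MCF10A, and 5 and 2 in MCF10Ca1a against MCF10AT1, where 61.6%, 80.9% and 78.4% of all genes tested were called. TXNIP and ARRDC4, glucose-responsive arrestins that restrain glucose uptake, had the largest rises of this list in MCF10Ca1a against MCF10A. TXNIP had 123 ± 6.85, 326 ± 14.2 and 1259 ± 9.64 CPM (SD, n = 3) in MCF10A, MCF10AT1 and MCF10Ca1a, with steps of 1.40 (SE 0.0599, edgeR adjusted p 2e-10) and 1.95 (SE 0.0605, edgeR adjusted p 2.86e-12). ARRDC4 had 16.1, 42.4 and 160 CPM, with steps of 1.39 and 1.91. MLX, a partner of the glucose sensor MLXIP, was 0.66 higher in MCF10Ca1a than in MCF10A, and MLXIP fell by 0.25. HIF1A, the hypoxia factor that drives many glycolysis genes, was higher than in MCF10A by 0.38 in MCF10AT1 and by 0.27 in MCF10Ca1a, while EPAS1, encoding HIF-2α, fell by 0.55 and then rose by 1.84. EGLN3, a prolyl hydroxylase and hypoxia target, had log2 changes of -1.82 and -2.42 against MCF10A.

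Transcript usage of the other members was read from the same share test, with 32 of the 34 genes tested. Its calls are less firm than those of the gene test, since on simulated data it made more false calls than its threshold allows. A transcript that was called and moved by at least 10 percentage points of its gene's counts was found in 2 genes in MCF10AT1 against MCF10A (all genes 4.62%), in 7 in MCF10Ca1a against MCF10A (26.9%) and in 5 in MCF10Ca1a against MCF10AT1 (21.5%). These shares of the set were near the background. GPI and PDK3 were the genes in the first comparison, and GPI, PDHA1, PDK1, PDK2 and PDK3 in the last. The GPI transcript ENST00000356487 went from 61.7% ± 0.854 (SD, n = 3) of GPI counts in MCF10A to 48.0% ± 2.04 in MCF10AT1 and 25.4% ± 0.658 in MCF10Ca1a (limma adjusted p 0.00819 and 0.000127 at the steps), while ENST00000588991 went from 10.5% to 16.0% and 24.8%. The PDHA1 transcript ENST00000422285 went from 17.9% ± 1.46 to 8.23% ± 1.17 and then to 0 of 12522 counts in MCF10Ca1a, which allows a share of up to 0.0240%, and ENST00000417819 rose from 48.8% to 67.0% (limma adjusted p 0.000494). The PDK3 transcript ENST00000688031 was absent from the counts of MCF10A (0 of 2051, allowing up to 0.146%) and MCF10AT1 (0 of 1249, up to 0.240%) and took 16.9%, 16.8% and 11.7% of PDK3 counts in the MCF10Ca1a libraries. The upper shares given for counts of 0 cover counting error only, not errors in assigning reads to transcripts. PFKM, whose gene-level changes were not called in the counts, had ENST00000551804 at 15.6%, 4.70% and 0.789% in the 3 lines (limma adjusted p 0.0386 in MCF10Ca1a against MCF10A). Of the PDK2 transcripts, ENST00000505897 had 23.4%, 21.0% and 21.8% in MCF10A, 28.4%, 21.6% and 26.2% in the MCF10AT1 libraries and 5.24%, 13.3% and 13.0% in MCF10Ca1a, lower there than in MCF10AT1 (limma adjusted p 0.0301) and MCF10A (0.0442). Other PDK2 transcripts varied widely within lines, for example 25.3%, 69.2% and 62.2% for ENST00000007708 in MCF10Ca1a, and no level is read from those.

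Promoter windows of 300 bases (250 before to 50 after a RefSeq start, GRCh38.p14) were matched for 30 of the 34 genes, giving 58 windows. ACGTG, the core of the element bound by hypoxia-inducible factors, and CACGTG, the E-box bound by MYC and by the carbohydrate response factors, were searched on both strands. Each CACGTG contains ACGTG on both strands and counts there as 2 matches. ACGTG was present in 22 of 58 windows (37.9%), beside 21.4% of all 35116 windows, and CACGTG in 8 of 58 (13.8%), beside 7.26%. The windows are not separate observations: HK1 and PFKM supply 7 each and SLC16A3 5, and 10 of the 58 overlap another window of the same gene, so that a match can count more than once, as 1 does for PFKM. Per gene, 18 of 30 (60.0%) had ACGTG in at least 1 window, beside 24.9% of all 27305 genes, which had fewer windows each (35116 in all). The windows shown belong to genes with 3 or more ACGTG matches that moved in opposite directions: LDHA and PGK1, which fell in MCF10Ca1a, and HK2 and ALDOC, which rose. A window of PDHB, which was higher in MCF10Ca1a than in MCF10A, also holds 3 matches and is not printed. Each is written 5′ to 3′ on the gene's strand, with matches in capitals.
LDHA, chr11:18394313-18394612, plus strand: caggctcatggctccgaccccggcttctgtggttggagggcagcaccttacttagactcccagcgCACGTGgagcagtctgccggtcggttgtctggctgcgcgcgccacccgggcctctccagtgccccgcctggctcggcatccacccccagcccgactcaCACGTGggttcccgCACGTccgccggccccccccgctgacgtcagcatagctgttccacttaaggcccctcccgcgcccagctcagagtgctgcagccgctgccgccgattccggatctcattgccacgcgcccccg
PGK1, chrX:78103998-78104297, plus strand: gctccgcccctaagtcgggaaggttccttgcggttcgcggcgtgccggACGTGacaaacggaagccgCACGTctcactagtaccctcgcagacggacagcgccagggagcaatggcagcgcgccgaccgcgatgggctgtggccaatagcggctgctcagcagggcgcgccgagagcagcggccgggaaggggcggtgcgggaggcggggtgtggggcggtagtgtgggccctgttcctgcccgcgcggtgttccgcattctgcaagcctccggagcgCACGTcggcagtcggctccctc
HK2, chr2:74834920-74835219, plus strand: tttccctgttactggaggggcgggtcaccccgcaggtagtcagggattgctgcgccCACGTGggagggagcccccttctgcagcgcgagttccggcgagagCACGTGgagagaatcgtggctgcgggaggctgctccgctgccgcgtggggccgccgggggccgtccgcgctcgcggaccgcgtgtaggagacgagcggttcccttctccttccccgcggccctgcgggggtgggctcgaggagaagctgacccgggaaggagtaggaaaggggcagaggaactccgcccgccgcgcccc
ALDOC, chr17:28576846-28577145, minus strand: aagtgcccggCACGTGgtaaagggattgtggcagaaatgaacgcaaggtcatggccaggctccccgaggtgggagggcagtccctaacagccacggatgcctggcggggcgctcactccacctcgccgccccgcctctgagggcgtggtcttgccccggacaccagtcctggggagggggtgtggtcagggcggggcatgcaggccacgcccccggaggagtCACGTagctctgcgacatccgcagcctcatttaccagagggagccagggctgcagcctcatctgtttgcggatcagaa
The LDHA window holds 5 matches, HK2 4, and PGK1 and ALDOC 3 each. Of the 18 genes with ACGTG in a window, 9 were higher, 7 lower and 2 not called in MCF10Ca1a against MCF10A, and of the 12 without, 7 were higher and 5 lower (all genes 39% and 41.9%). In MCF10AT1 against MCF10A the counts were 5 higher, 8 lower and 5 not called with a match, and 5, 2 and 5 without (all genes 29.8% higher and 31.8% lower). In MCF10Ca1a against MCF10AT1 they were 8, 7 and 3 with a match and 5, 6 and 1 without (38% and 40.3%). A match is a run of letters and no evidence of binding.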

How the data were processed

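Polyadenylated RNA of 9 libraries, 3 per line, was purified with the Qiagen RNeasy kit and made into stranded libraries with an Illumina mRNA kit, per the labels' protocols. The authors deposited 6 tables: estimated counts per gene (plain, length-scaled and scaled) and per transcript, and TPM per gene and per transcript. Salmon and hg38 are named in the submitters' processing notes, and the annotation release is not given in the sources used here. Columns were matched to libraries by name.

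Gene counts, deposited as estimated counts, were rounded to integers and filtered with filterByExpr by line (minimum count 10, minimum total 15), leaving 17910 of 62666, and tested with edgeR 4.0.16 in R 4.3.3 (TMM, quasi-likelihood F test, line as the only term, all 9 libraries in 1 fit), with Benjamini-Hochberg adjustment at 0.05. Standard errors were derived from the log2 change and its F statistic. Transcript shares used limma 3.58.1 on log2 of transcript over rest of gene with an offset of 0.5, for 71093 of 252876 transcripts with at least 10 counts in at least 3 libraries, in 11598 genes. TPM as deposited was used for levels between genes, shares within families and, with a pseudocount of 1 or 0.1, limma alternatives. The M1 to M2 ratio was tested by exact permutation of libraries. The tests were run on simulated data. There the calls of the share test, counted per gene, held a larger share of false ones than 0.05, the threshold it applies per transcript. Further alternatives were DESeq2 1.42.0, no filter, scaled counts, thinning, a replicate block, fits on the compared lines alone, and omission of each library.

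Genes given in every library were PKM, LDHA, LDHB, GAPDH, PDK1 and, in each comparison, the 3 largest rises and falls among called members with non-overlapping CPM and a mean of at least 100 counts where higher. Other members given this way (SLC2A1, SLC16A3, PGK1, TKT and PGD) and the usage examples were chosen after their values were seen. The members and lists were chosen with earlier results of these data known. Exons and gene positions come from GENCODE 29 on GRCh38 and promoter windows from RefSeq on GRCh38.p14. Replicate numbers did not pair the libraries. Same-numbered libraries of different lines had correlations of deviations from -0.14 to 0.16 over 9 pairs.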

Additional observations from a re-analysis of the deposited data

How the results depend on the processing

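Of 102 results (34 genes in 3 comparisons), 71 kept both their sign and their side of the threshold in all 20 alternative analyses. A call was gained, lost or turned in 24, and in 7 others an uncalled value changed sign with no call on either side. Sign changes occurred in 14 in all. In 5 of them the value was called on at least 1 side, all on the TPM scale: in MCF10Ca1a against MCF10AT1, GAPDH went to 0.047, PFKFB4 to 0.09, PDHB to 0.01 and PDHA1 to 0.39, and in MCF10Ca1a against MCF10A, PFKFB3 went to 0.02. The cause was not tested. Counts of genes higher and lower (MCF10AT1 against MCF10A first, then MCF10Ca1a against MCF10A, last MCF10Ca1a against MCF10AT1) moved by over 1.5 times in 2 analyses. With a change of at least 1 on the log2 scale, chosen after seeing the data, they were 1 and 0, 7 and 6, and 6 and 6. With limma on log2(TPM + 1) without a filter, 7 were higher in MCF10AT1 than in MCF10A and 9 lower in MCF10Ca1a than in MCF10AT1. Of 32434 genes tested in that setting, 27.4% and 43.3% were called in these comparisons, and 36.1% and 62.8% of those calls were higher. Leaving out each library in turn gave 12 to 14 higher and 10 to 12 lower, 18 to 21 and 12 to 13, and 16 to 17 and 13 to 14. The PKM ratio spanned 1.02 to 1.12 and the called PKM transcripts stayed at 2 to 2 in number. With transcripts that hold both neighbouring exons, chosen after seeing the data, the span was 0.55 (exact permutation p 0.00714) and the highest line changed. On transcript TPM, 8 PKM transcripts were called. With a replicate block the counts were 12 and 11, 20 and 13, and 17 and 14, where 60.6%, 80.4% and 77.7% of all genes were called. Called PKM transcripts were 2 in that fit, while a library correlated best with its own number in 4 of 18 checks. Depth limits SLC2A3 and ENO2 in MCF10Ca1a, where single libraries hold 0 to 7 counts.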
